A study of Drosophila melanogaster with 91 samples.

Results

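Single Drosophila melanogaster embryos labelled 555 to 645 min after cellularization were compared with embryos labelled 330 to 420 min. Each group held 7 embryos, so 14 of the 91 embryos of the series entered the comparison, and they were chosen by labelled time alone. The working names of the windows are dorsal closure for the later and germ-band retraction for the earlier one, but the labels give minutes and no stage, so the groups are called here by their times. Both groups went through the same steps. Whole embryos without their chorion were watched under a microscope and frozen singly at the labelled time. They were sequenced by CEL-Seq, which counts reads from the 3' ends of polyadenylated RNA. Time under this handling may differ with labelled time and cannot be told apart from it, and its part in the values was not tested. No treatment or allele is named for either group, the strain is not given in the sources used here, and all 14 libraries were in library pool 5. A further 8 embryos of the same pool, labelled 435 to 540 min, lie between the groups and are used only for description. There was 1 embryo per time point and times were 15 min apart, so the spread within a group holds differences between embryos together with change over the window. No label ties an embryo to a mother or an egg collection, and p-values measure only the spread between these embryos.

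In germ-band retraction the posterior body segments, which had folded over the dorsal side, move back to the tail end while the amnioserosa, a thin extraembryonic sheet, unfolds over the back. In dorsal closure the lateral epidermis is then drawn over the amnioserosa until its edges meet in the midline. The leading edge cells of the epidermis use the JNK cascade, which switches on the BMP ligand dpp and the phosphatase puc through the transcription factors Jra (Jun) and kay (Fos), and the amnioserosa contracts and is later lost. The U-shaped genes, among them peb, ush and tup, are named for mutants whose germ band does not retract.

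The libraries of the later group held 584875 to 2747282 gene counts and those of the earlier group 839049 to 2501751, a difference smaller than the spread (two-sided exact permutation test over embryos, p = 0.324). Synthetic spike-in RNA took 7.61 ± 2.57% of gene and spike-in counts at 555 to 645 min and 4.79 ± 0.757% at 330 to 420 min (SD, n = 7 each). Its range was 4.89% to 12.0% in the later group and 3.70% to 5.92% in the earlier one (exact permutation test, p = 0.00641, 0.0449 after Benjamini-Hochberg adjustment over 7 library measures). The share was above 8% in the embryos at 585, 600 and 630 min. Transcripts encoded in the mitochondrial genome took 11.2 ± 3.31% of gene counts in the later and 8.26 ± 1.17% in the earlier embryos (exact permutation p = 0.0495, adjusted 0.173). After thinning every library to 584875 counts, 6036 ± 1196 genes were detected in the later and 6904 ± 539 in the earlier embryos (exact permutation p = 0.109, adjusted 0.216). Unaligned reads took 40.5% of all reads at 600 min, the library with the fewest gene counts, against 14.6% to 21.9% in the other embryos of the later group and 15.9% to 17.7% in the earlier group.

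Labelled time ordered the embryos by their transcripts only in part. The embryo labelled 645 min and the one labelled 405 min both stood apart from the rest of their groups, and so did the embryo at 540 min, which is in neither group. Levels are given as normalised CPM, gene counts scaled to a common library total (CPM) with TMM factors over these 22 embryos. Hr3, a nuclear receptor of the ecdysone response, had 516 normalised CPM at 645 min against 12.6 to 165 in the other 6 later embryos. In the earlier group Hr3 had 848 at 405 min and 6.74 to 53.0 in the other embryos. The receptor Hr4 had 1362 at 645 min, at most 203 in the other later embryos, and 1198 at 405 min, against at most 135 elsewhere in the earlier group. The same 2 embryos had the highest values of their groups for fne, an RNA-binding protein of neurons, with 1368 normalised CPM at 645 min and 1282 at 405 min. The mitotic cyclin CycB was lowest in its group in both, with 21.3 at 645 min and 49.7 at 405 min. The closest other embryo of the whole series, by the Spearman correlation of expression over 7722 genes, was the one labelled 780 min for the 645 min embryo and the one labelled 750 min for the 405 min embryo. For the embryos at 570 and 585 min it was the one labelled 420 min and the one labelled 435 min. For the embryo at 630 min it was, as for the one at 405 min, the embryo labelled 750 min (Spearman 0.830). The closest embryo lay within the same window for those at 345, 360, 375, 390, 420, 555, 600 and 615 min. For the one at 330 min it was the embryo labelled 270 min. Values without the embryos at 645 and 405 min are given beside several results below.

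**Figure D1:**
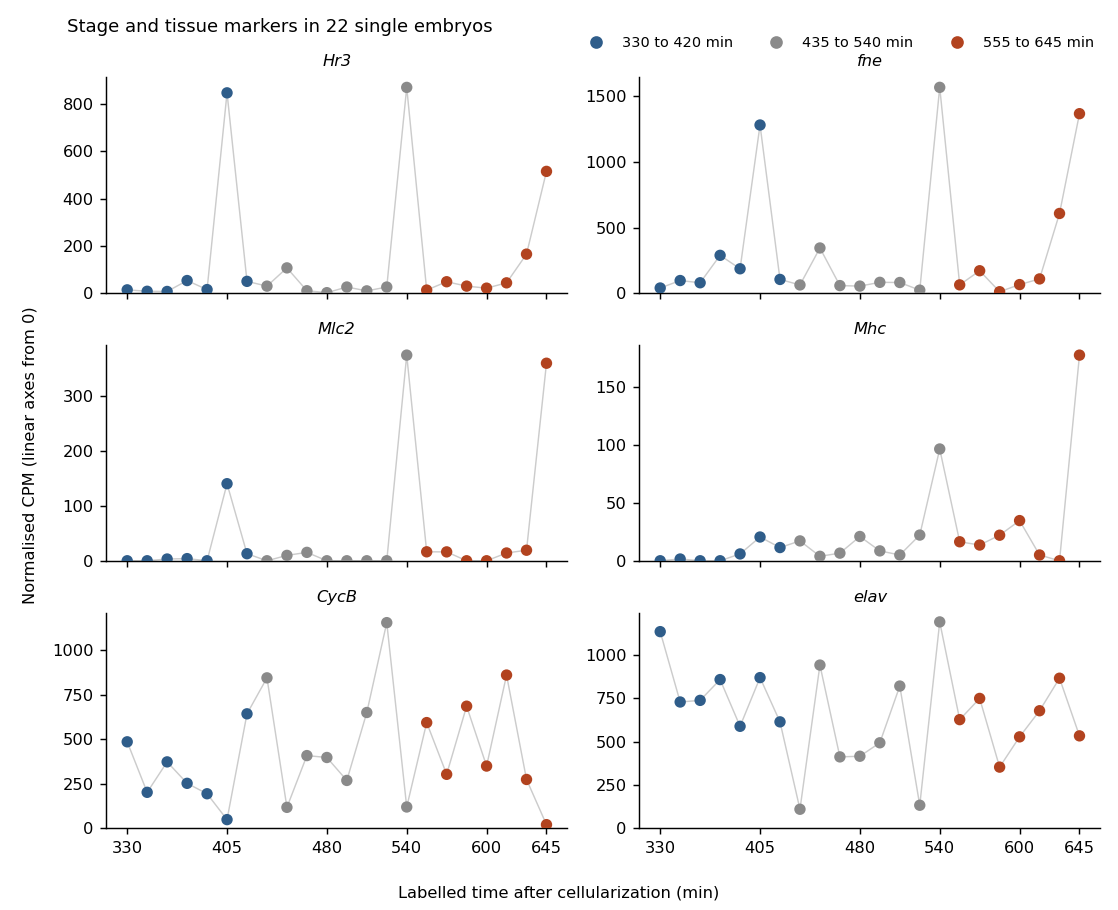
Normalised CPM (vertical axes, linear) of Hr3, fne, Mlc2, Mhc, CycB and elav against labelled time (horizontal axis, min) in 22 single embryos, 1 point per embryo, coloured by window. The embryos at 405, 540 and 645 min hold the 3 highest values of Hr3, fne and Mlc2 among the 22.

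The markers of cell types were checked in both groups. Among the defining markers of muscle, Mhc (myosin heavy chain) had 177 normalised CPM at 645 min and 0 to 34.6 in the other 6 later embryos, against 0 to 20.5 in the earlier ones. Mlc2 (myosin light chain) had 361 at 645 min and at most 19.2 in the other later embryos, and 141 at 405 min with at most 12.8 in the other earlier ones. Apart from the embryos at 645 and 405 min, Mhc and Mlc2 were thus low in both groups. Neurons were marked in all 14 embryos by elav, an RNA-binding protein of neurons, with 619.7 ± 167 in the later and 791 ± 186 in the earlier group. The late marker genes Ddc and ple, enzymes of cuticle tanning, and TwdlT, a cuticle protein, were at or under 11.1 in every one of the 14 embryos. The egg markers bcd, osk and BigH1 were at or under 20.8, and the markers of maternal eggshell and yolk (Cp36, Cp38, Yp1 and Yp2) were at or under 13.8. C15, Hml and Adh, markers of the amnioserosa, of hemocytes and of the fat body, were at or under 2.57 in all 14. Other markers of these tissues, peb, NimC4 and apolpp, had higher levels in both groups and are given below.

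Of 5592 genes tested, 56 rose at 555 to 645 min (1.00%) and 0 fell (0%), with edgeR's quasi-likelihood F-test and an adjusted p under 0.05. At an unadjusted p under 0.05 there were 408 genes higher (7.30%) and 255 lower (4.56%). The median log2 fold change of all tested genes was -0.12 and that of the 56 called genes was 1.39, and 35 of the 56 rose at least 2-fold. Of all 5592 tested genes 2417 (43.2%) had a log2 fold change above 0, and list counts above 0 below stand against this share. The smallest adjusted p was 0.0355 and 34 genes shared it, so the list as a whole stands close to the threshold. In 22 genes (0.393%) every later embryo was above every earlier one, and in 19 genes (0.340%) every later embryo was below. Of the 56 called genes, 10 were among the 22. The count depended on which embryos entered: without the embryos at 645 and 405 min 165 genes were higher and 37 lower, and without the 3 embryos whose spike-in share was above 8% there were 0 and 0. Leaving out 1 embryo gave 0 calls for any of those at 555, 585, 600, 615, 330, 345, 360, 375 and 390 min, and 127 higher and 45 lower without the one at 645 min. It gave 103 higher and 5 lower without the one at 405 min, 89 and 15 without the one at 570 min, 20 and 0 without the one at 630 min, and 8 and 0 without the one at 420 min.

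Heat shock genes had the highest median fold change of the lists. Of 11 heat shock genes tested, 4 rose and 0 fell, against 1.00% and 0% of all tested genes. All 11 had a log2 fold change above 0, against 43.2% of all tested genes. Their median was 2.21 against -0.12 for all tested genes. With library sizes set by spike-ins 8 of the 11 were above 0, with a median of 1.26 against -0.94 for all genes, and 0 passed. None of the 11 passed with limma voom or with the spike-in share as a covariate either, and 1 passed with RLE size factors, while all 11 stayed above 0 in these 3 fits. Hsp26, a small heat shock protein that holds unfolded proteins, had 264, 34.0, 79.2, 268, 363, 226 and 38.7 normalised CPM in the embryos at 555, 570, 585, 600, 615, 630 and 645 min. In the embryos at 330, 345, 360, 375, 390, 405 and 420 min it had 2.14, 10.6, 15.1, 10.9, 10.8, 54.1 and 9.55. In 5 of the 7 later embryos it was above every earlier embryo, and the embryos at 570 and 645 min were the lower ones. The log2 fold change of Hsp26 was 3.44 ± 0.64 (SE, edgeR adjusted p = 0.0355).

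Hsp70Aa and Hsp70Ab encode the main stress-induced chaperone and are near-identical copies, so values are uncertain for the single copy. Both are among the called heat shock genes, so the counts of the list above are not counts of independent genes. Hsp70Aa had 579, 24.1, 207, 599.6, 458, 406 and 5.46 normalised CPM from 555 to 645 min, in order of time. From 330 to 420 min it had 57.8, 29.1, 23.4, 7.77, 26.5, 14.6 and 42.6. The same 5 later embryos, those at 555, 585, 600, 615 and 630 min, were above all earlier embryos, while the embryo at 570 min lay within the range of the earlier group and the one at 645 min below it. Hsp70Aa rose by a log2 fold change of 3.46 ± 0.72 and Hsp70Ab by 3.40 ± 0.72 (SE, edgeR adjusted p = 0.0355 for both). Hsp68, another inducible chaperone of the Hsp70 family, averaged 97.7 ± 91.0 normalised CPM in the later and 6.65 ± 5.37 in the earlier embryos. It rose by 3.83 ± 0.75 on the log2 scale (SE, edgeR adjusted p = 0.0355), with 6 of 7 later embryos above every earlier one.

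The other 7 heat shock genes did not pass the adjusted threshold, and DnaJ-1 and Hsp83 are named here for their known roles. The cochaperone DnaJ-1 averaged 447 ± 189.7 normalised CPM in the later and 238 ± 80.4 in the earlier embryos, and Hsp83, the Hsp90 of flies, 552 ± 164 in the later and 354 ± 108 in the earlier embryos (edgeR adjusted p = 0.156 and 0.283). The summed level of the 14 heat shock genes in the table was 926 to 3293 at 555 to 645 min and 496 to 1098 at 330 to 420 min. It was above all earlier embryos in 5 of 7 later ones and was 763 to 1239 in the 8 embryos between. The embryo at 600 min had both the highest heat shock sum and the highest spike-in share, while the embryos at 555 and 615 min had heat shock sums of 2914 and 3275 with spike-in shares of 6.15% and 6.02%. Without the 3 embryos above 8% spike-ins, 0 heat shock genes passed, all of 12 tested were above 0 and the median was 2.11. Without the embryos at 645 and 405 min 5 of 11 rose. The part of RNA amount in these values was not tested.

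**Figure D2:**
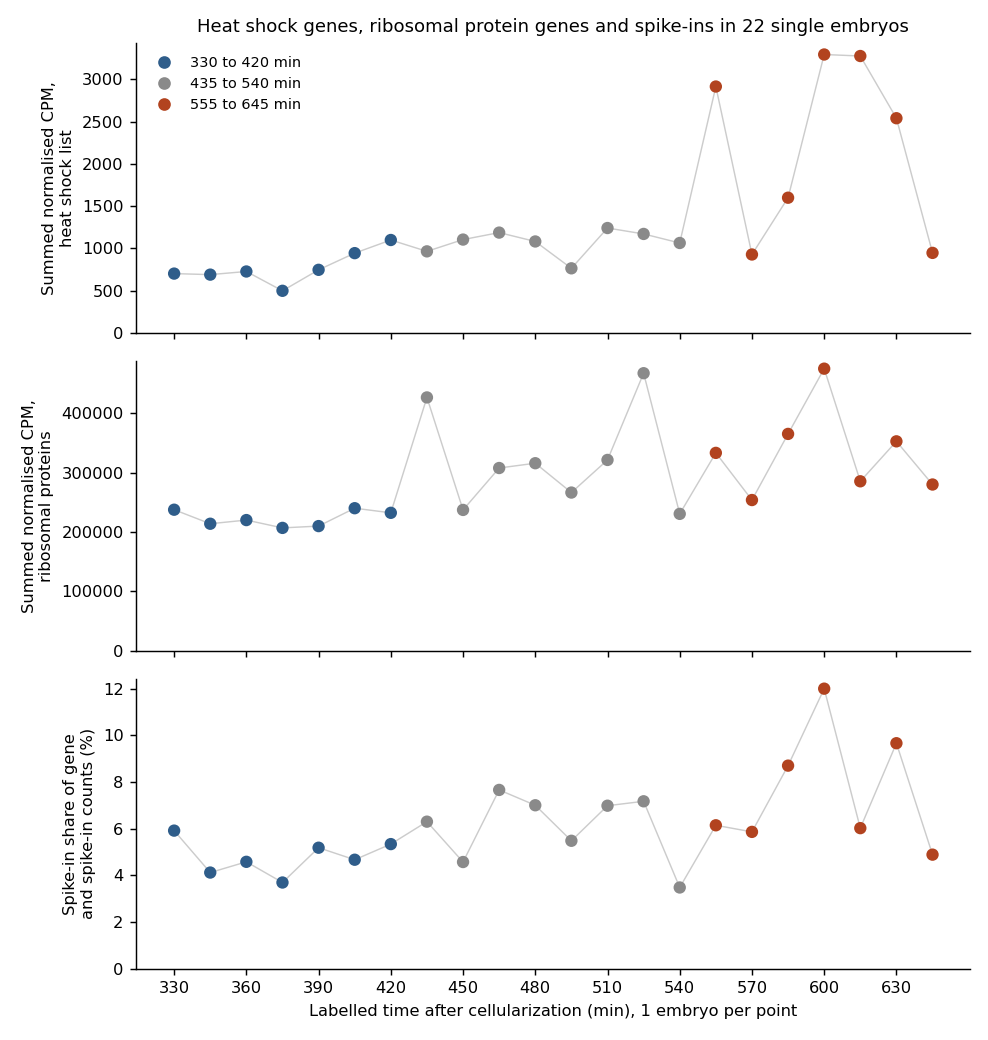
Summed normalised CPM of the heat shock list (top), summed normalised CPM of cytosolic ribosomal protein genes (middle) and spike-in share in percent (bottom) against labelled time in min, 1 point per embryo, 22 embryos coloured by window. The heat shock sum is 1598 or more in the embryos at 555, 585, 600, 615 and 630 min and at most 1239 in the other 17, while the 3 highest ribosomal sums, 426384 or more, are at 435, 525 and 600 min.

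A noncoding RNA of a heat shock locus rose as well. The alphagamma-element (CR32865), transcribed from a repeat beside Hsp70 genes and known for its heat response, averaged 193 ± 124 normalised CPM in the later and 36.5 ± 21.8 in the earlier embryos. Its log2 fold change was 2.37 ± 0.47 (SE, edgeR adjusted p = 0.0355). Over the 22 embryos labelled 330 to 645 min, the genes most like it by Spearman correlation were CG16758 (0.892), CG15771 (0.874) and Men (0.833). Those most like Hsp68 were Hsp70Ab (0.784), Hsp70Aa (0.778) and FBgn0052043 (0.723), and those most like Hsp26 were cherub (0.804), CG6424 (0.783) and the alphagamma-element (0.771). These correlations are descriptions over embryos that share a library pool.

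Several enzymes were among the risers. Prx6c, a peroxiredoxin that removes peroxides, averaged 163 ± 125 normalised CPM in the later and 29.96 ± 11.4 in the earlier embryos, with a log2 fold change of 2.38 ± 0.52 (SE, edgeR adjusted p = 0.0355). GstD9, a glutathione transferase, had 44.5 to 204 in the later and 8.56 to 47.2 in the earlier embryos and rose by 2.14 ± 0.47. In 6 of 7 later embryos GstD9 was above every earlier one. Xrp1, a transcription factor induced by DNA damage and ribosome defects, averaged 162.5 ± 162 in the later and 37.0 ± 20.9 in the earlier embryos, and its highest value was 523.5 in the embryo at 600 min (log2 fold change 2.04 ± 0.46, edgeR adjusted p = 0.0405). Lpin, the phosphatidate phosphatase lipin of fat synthesis, had 44.3 to 221 in the later and 7.85 to 54.5 in the earlier embryos and rose by 2.07 ± 0.43. SNF4Agamma, the gamma subunit of the energy sensor AMPK, rose by 1.32 ± 0.31, with 212 ± 85.7 in the later and 83.1 ± 35.0 in the earlier embryos (edgeR adjusted p = 0.0464). SNF4Agamma and the called genes named in the next 2 paragraphs other than Pka-C3, for, Rdl, cherub and Pino were picked after their values were seen.

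Genes for kinases and other signalling proteins were also among the 56. Pka-C3, a catalytic subunit of cyclic AMP dependent protein kinase, had 145, 35.4, 175, 329.8, 79.4, 22.3 and 0 normalised CPM from 555 to 645 min in order of time. From 330 to 420 min it had 9.28, 5.03, 4.36, 2.47, 0, 0 and 8.08. It was above all earlier embryos in 6 of 7 later ones and at 0 in the embryo at 645 min (log2 fold change 4.61 ± 0.97, edgeR adjusted p = 0.0355). The gene for, the cyclic GMP dependent kinase known for larval foraging behaviour, had 621, 168, 309.7, 348, 362, 235 and 112 in the later embryos and 28.2 to 115 in the earlier ones. It was above every earlier embryo in 6 of 7 later ones and rose by 2.00 ± 0.37. The genes most like it over the 22 embryos were cv-2, a BMP-binding protein (Spearman 0.877), Su(Tpl) (0.868) and CG14275 (0.868). Btk, a Tec-family tyrosine kinase, averaged 2017 ± 935 in the later and 716 ± 239 in the earlier embryos and rose by 1.47 ± 0.32. The calcium sensor Cam (calmodulin) rose by 1.30 ± 0.27 and the small GTPase Rala by 1.66 ± 0.36, with 5 and 6 of 7 later embryos above all earlier ones. For these 5 genes the edgeR adjusted p was 0.0355.

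Among transcription and RNA regulators, cbt (cabut), a zinc finger factor downstream of JNK that is needed for dorsal closure, had 385, 238, 32.3, 422, 298, 135 and 115 normalised CPM in the later embryos. In the earlier embryos it had 28.6 to 115. In 5 of 7 later embryos it was above every earlier one and the embryo at 585 min was lowest (log2 fold change 1.92 ± 0.45, edgeR adjusted p = 0.0464). The TSC22-family gene bun averaged 1016 ± 449 in the later and 319 ± 115 in the earlier embryos and rose by 1.63 ± 0.31, and drongo, which encodes a protein with an Arf GTPase-activating domain, averaged 536 ± 278 in the later and 145 ± 38.4 in the earlier embryos and rose by 1.84 ± 0.32. The histone H3 methyltransferase gpp rose by 1.22 ± 0.28. The long noncoding RNA cherub, known from neural stem cells, had 8.10 to 162 in the later and 0 to 20.9 in the earlier embryos and rose by 4.38 ± 0.87. Rdl, a subunit of the GABA-gated chloride channel, averaged 185 ± 247 in the later and 10.5 ± 7.05 in the earlier embryos, with 702 at 585 min and 0.496 at 645 min, and rose by 4.06 ± 0.89. Pino averaged 304 ± 239.9 in the later and 25.1 ± 16.3 in the earlier embryos and rose by 3.51 ± 0.77. For bun, drongo, cherub, Rdl and Pino the edgeR adjusted p was 0.0355.

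**Figure D3:**
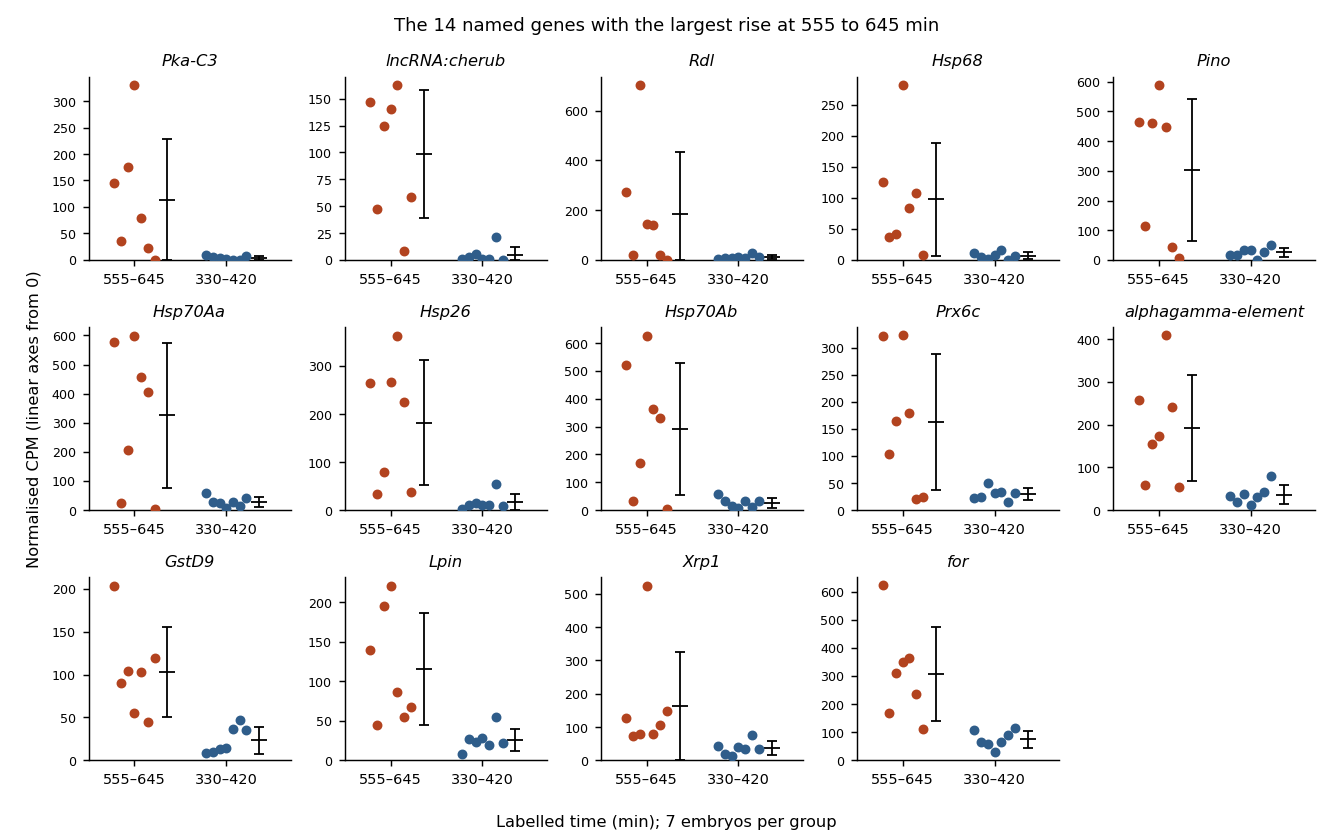
Normalised CPM (vertical axes, linear from 0) of the 14 named genes with the largest rise, in the 7 embryos at 555 to 645 min (left) and the 7 at 330 to 420 min (right), points in order of time within a group. Horizontal marks are means and whiskers SD, drawn no lower than 0. The later embryos spread widely, and the embryo at 645 min, the last point of the left group, is at 0 for Pka-C3, 0.496 for Rdl and 5.46 for Hsp70Aa.

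Cytosolic ribosomal protein genes were the largest group among the called genes. Of 77 tested, 17 rose and 0 fell, against 1.00% and 0% of all tested genes. All 77 had a log2 fold change above 0, against 43.2% of all tested genes, and the median was 0.51. With RLE size factors 0 of 77 passed, although all 77 were above 0 with a median of 0.49, and 0 of 78 passed with all 22 embryos in 3 groups. The direction turned with spike-in scaling, where 0 of 77 were above 0 and the median was -0.41. Relative to the median of all tested genes the ribosomal median was 0.63 higher with TMM and 0.53 higher with spike-in scaling. RpL5, a protein of the large subunit, had 3689, 3131, 4252, 4605, 3418, 4003 and 2909 normalised CPM from 555 to 645 min in order of time. From 330 to 420 min it had 2890.5, 2168, 2162, 2269, 2163, 2255 and 2793. The groups did not overlap (log2 fold change 0.61 ± 0.13, edgeR adjusted p = 0.0355, and -0.31 with spike-in scaling).

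Reads of near-identical ribosomal paralogs or pseudogenes may be shared. RpL21 averaged 49607 ± 14983 normalised CPM in the later and 31565 ± 2862 in the earlier embryos and RpL37-1, also of the large subunit, 4601 ± 744 in the later and 2917 ± 464 in the earlier embryos. Their log2 fold changes were 0.61 ± 0.13 and 0.63 ± 0.14 (SE, edgeR adjusted p = 0.0355 for both), and both were under 0 with spike-in scaling. The summed level of the 82 ribosomal protein genes in the table was 253701 to 474805 in the later and 206805 to 239947 in the earlier embryos, so every later embryo was above every earlier one. The embryo at 600 min, with the highest spike-in share and 40.5% unaligned reads, had the highest sum, and its TMM factor of 0.746 was the lowest of the 22. Without the 3 embryos above 8% spike-ins 0 of 77 rose, 75 were above 0 and the median was 0.41. Without the embryos at 645 and 405 min 32 of 77 rose. Among nuclear genes of the mitochondrial respiratory chain 0 of 57 passed in either direction and the median was -0.16. Of the transcripts encoded in the mitochondrion, mt:Cyt-b (cytochrome b) rose by 0.99 ± 0.21 and mt:CoI (a subunit of cytochrome oxidase) by 0.72 ± 0.16 (edgeR adjusted p = 0.0355 and 0.0405), both under 0 with spike-in scaling. Oda, the antizyme that limits polyamine synthesis, averaged 4202 ± 1505 in the later and 2059 ± 429.6 in the earlier embryos and rose by 0.996 ± 0.212 (edgeR adjusted p = 0.0355).

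No gene fell past the threshold in the 14 embryos, and the genes described next are given as values. Those in this paragraph, and below pnr, Doc3, kay, cv-2, tai, Ubx, hh, salm, tsh, Act87E and the E(spl) genes, were chosen after their values were seen. DESeq2 called 65 genes lower, limma voom 16, the 5 latest against the 5 earliest embryos 4, and leaving out the embryo at 645, 570 or 405 min gave 45, 15 and 5. Over these 6 alternatives and the one without both the 645 and 405 min embryos, 7 of the 110 genes called lower in any were called in at least 4. The fit without a filter on low counts called 2 and is not in that count. CNBP, a zinc finger nucleic acid binding protein, was called lower in 6 of the 7. It had 423, 684, 242, 279, 440.4, 696 and 687 normalised CPM in the later embryos and 770.1 to 1652 in the earlier ones, so the groups did not overlap (log2 fold change -1.10 ± 0.27, edgeR adjusted p = 0.0537). The ubiquitin-conjugating enzyme gene ben had 72.9 to 217 in the later and 276 to 369 in the earlier embryos, again without overlap (-1.01 ± 0.26, edgeR adjusted p = 0.0571). Dref, a transcription factor of DNA replication genes, averaged 35.9 ± 20.1 in the later and 94.4 ± 27.7 in the earlier embryos (edgeR adjusted p = 0.0721), and the noncoding RNA marge averaged 133 ± 67.5 in the later and 328 ± 85.5 in the earlier embryos (edgeR adjusted p = 0.0593). HmgD, a chromatin protein that takes the place of linker histone in early embryos, averaged 608 ± 109.6 in the later and 1023 ± 284 in the earlier embryos (edgeR adjusted p = 0.0746).

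**Figure D4:**
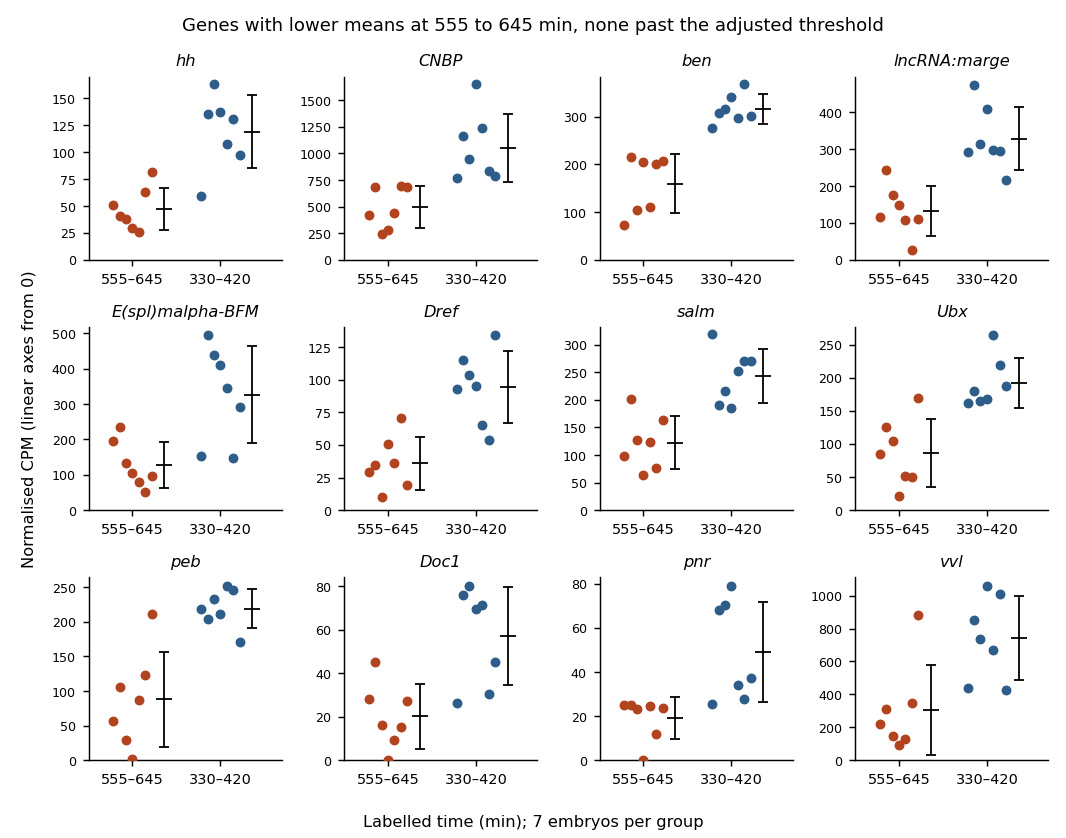
Normalised CPM (vertical axes, linear from 0) of 12 genes with lower means at 555 to 645 min (left, 7 embryos) than at 330 to 420 min (right, 7 embryos), points in order of time within a group. Horizontal marks are means and whiskers SD, drawn no lower than 0. CNBP, ben and pnr do not overlap between the groups, and none of the 12 had an edgeR adjusted p under 0.05.

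Amnioserosa genes had lower means at 555 to 645 min, without a call. Of 8 tested members of the amnioserosa and U-shaped list, 0 passed in either direction and 0 were above 0. The median log2 fold change was -1.31, and under spike-in scaling it was -2.04. Relative to the median of all tested genes the list median was -1.19 with TMM and -1.10 with spike-in scaling. DESeq2 called 2 of the 8 lower. The RNA came from whole embryos, so fewer cells of a type and less RNA per cell cannot be told apart. The zinc finger gene peb (hindsight), which keeps the amnioserosa intact and is needed for retraction, had 57.2, 105, 29.4, 2.31, 87.2, 122 and 211 normalised CPM from 555 to 645 min in order of time. From 330 to 420 min it had 218, 203.5, 233, 210.4, 252, 246 and 170.4. Apart from the embryo at 645 min all later embryos were below the earlier group (log2 fold change -1.29 ± 0.49, edgeR p = 0.0152, adjusted 0.253). The T-box genes Doc1 and Doc3, which act in amnioserosa and heart, averaged 20.2 ± 14.8 and 14.9 ± 13.1 in the later and 57.0 ± 22.5 and 54.7 ± 23.9 in the earlier embryos. The GATA factor pnr, of amnioserosa and dorsal ectoderm, had 0 to 25.3 in the later and 25.7 to 79.1 in the earlier embryos. The peptidase gene Ance and ush, a partner of GATA factors, differed less, with 80.6 ± 30.4 and 77.6 ± 37.1 in the later and 106 ± 45.6 and 85.1 ± 17.2 in the earlier embryos. The summed level of the 12 genes of the list in the table was 85.3 to 430 in the later and 462 to 870 in the earlier embryos. Doc1 and pnr were at 0 in the embryo at 600 min, whose library was the smallest of the 14. Without the 3 embryos above 8% spike-ins the list median was -0.98, with the spike-in share as a covariate it was -0.30 with 3 of 8 above 0, and without the embryos at 645 and 405 min it was -1.57.

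Of 19 JNK pathway genes tested, 0 passed in either direction. Their median log2 fold change was 0.31 and 14 were above 0. With spike-in scaling 1 of 19 was above 0 and the median was -0.56, still 0.38 above that of all tested genes. With no scaling beyond gene totals 10 of 19 were above 0 and the median was 0.03, against -0.39 for all tested genes. The Fos gene kay had 300.3, 77.4, 128, 32.3, 141, 186 and 114 normalised CPM in the later embryos and 30.7 to 71.5 in the earlier ones. It was above every earlier embryo in 6 of 7 later ones, with a log2 fold change of 1.60 ± 0.39 that missed the threshold (edgeR adjusted p = 0.0529). Jra, puc, dpp and EcR are named for their known roles. Jra, the partner of kay, averaged 36.3 ± 19.3 in the later and 24.3 ± 17.6 in the earlier embryos, and puc, the phosphatase that feeds back on JNK, 30.7 ± 21.0 in the later and 19.6 ± 9.07 in the earlier embryos. The actin regulator ena averaged 489 ± 224 in the later and 300.0 ± 144 in the earlier embryos, and the JNK kinase kinase kinase kinase msn 271 ± 65.1 in the later and 209.7 ± 67.8 in the earlier embryos (edgeR adjusted p = 0.425 and 0.634). With TMM scaling the summed level of the 20 genes in the table was above every earlier embryo in 6 of 7 later ones. It was 2110 to 2645 in the later and 1555 to 2190 in the earlier embryos.

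The BMP ligand dpp, a target of JNK at the leading edge, averaged 27.2 ± 23.2 normalised CPM in the later and 31.8 ± 13.0 in the earlier embryos, a difference within the spread. Of 12 BMP genes tested 0 passed, 5 were above 0, near the share of all tested genes (43.2%), and the median was -0.18. The antagonist sog had 37.4 to 498 in the later and 50.2 to 85.6 in the earlier embryos (edgeR adjusted p = 0.156), the ligand gbb averaged 143 ± 61.7 in the later and 233 ± 54.6 in the earlier embryos (adjusted 0.38), and cv-2 averaged 108 ± 41.1 in the later and 45.9 ± 26.1 in the earlier embryos (adjusted 0.154). Of 15 ecdysone genes tested 0 passed, 11 were above 0 and the median was 0.20, or -0.58 with spike-in scaling. Relative to the median of all tested genes the ecdysone median was 0.31 with TMM and 0.36 with spike-in scaling. Without the embryo at 405 min the ecdysone median was 0.90 with 13 of 15 above 0, and without the one at 645 min it was 0.048 with 8 of 15 above 0 and 1 gene called higher. The receptor EcR averaged 78.0 ± 30.1 in the later and 60.7 ± 14.5 in the earlier embryos, and its coactivator tai 309.9 ± 128 in the later and 141.5 ± 50.3 in the earlier embryos (edgeR adjusted p = 0.0893). The insulin antagonist ImpL2, an ecdysone-inducible gene, averaged 973 ± 379.7 in the later and 844 ± 142 in the earlier embryos. For Hr3 the log2 fold change was -0.24 ± 1.01, with the embryos at 645 and 405 min setting both group means, and it became 2.18 with DESeq2, which replaced the outlying count of the 405 min embryo.

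Of the Hox, Notch and segment polarity lists, no member passed with edgeR and all embryos of both groups. All 9 Hox genes and cofactors were under 0, with a median log2 fold change of -0.45. Ubx, the Hox gene of the posterior thorax, had 20.8 to 169 normalised CPM in the later and 162 to 265 in the earlier embryos (-1.14 ± 0.36, edgeR adjusted p = 0.154). The abdominal Hox gene abd-A averaged 210.5 ± 122 in the later and 365 ± 76.8 in the earlier embryos, and the cofactor hth 1350.1 ± 546 in the later and 1825 ± 266 in the earlier embryos (edgeR adjusted p = 0.490 and 0.452). Of 18 Notch pathway genes 3 were above 0 and the median was -0.42. The target E(spl)mbeta-HLH, a repressor of neural fate, had 0 to 49.1 in the later and 64.9 to 97.0 in the earlier embryos without overlap (-1.60 ± 0.49, edgeR adjusted p = 0.136). The target E(spl)malpha-BFM averaged 128 ± 64.8 in the later and 327 ± 137 in the earlier embryos (adjusted 0.0694), while the receptor N averaged 584 ± 202 in the later and 596.5 ± 82.5 in the earlier embryos. Of 16 segment polarity genes and EGF ligands 7 were above 0, near the share of all tested genes (43.2%), and the median was -0.03. Their ligand hh had 51.3, 40.7, 38.2, 30.0, 26.2, 62.7 and 81.9 in the later embryos and 59.2 to 163 in the earlier ones (-1.33 ± 0.33, edgeR adjusted p = 0.0526). The Wnt receptor fz2 averaged 436 ± 90.2 in the later and 370.5 ± 87.4 in the earlier embryos and the feedback inhibitor nkd 472 ± 197 in the later and 445.5 ± 38.2 in the earlier embryos. The spalt gene salm, of trachea and other ectoderm, averaged 122 ± 48.2 in the later and 243.5 ± 48.6 in the earlier embryos (edgeR adjusted p = 0.0893). Of the 7 alternatives counted above for lower calls, 5 called E(spl)malpha-BFM lower and 4 called salm lower. Ubx and hh were called lower in 3 each, the Notch target E(spl)mgamma-HLH in 2 and E(spl)mbeta-HLH in 1.

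Tracheal genes showed the second lowest median of the lists, -0.76 over 10 tested members, of which 0 passed and 1 was above 0. The transcription factor vvl averaged 305 ± 272 normalised CPM in the later and 742 ± 253 in the earlier embryos, and rib 659 ± 279 in the later and 1177 ± 252 in the earlier embryos (edgeR adjusted p = 0.168 and 0.153). The tracheal master gene trh had 0 to 94.3 in the later and 58.7 to 195 in the earlier embryos. The highest later value of vvl, 885, was in the embryo at 645 min. Among 9 glial genes, with a median of -0.24, the glial switch gene gcm averaged 145 ± 91.5 in the later and 315 ± 99.4 in the earlier embryos (edgeR adjusted p = 0.194) and the pump subunit nrv2 142 ± 56.4 in the later and 107 ± 33.4 in the earlier embryos. Among 6 hemocyte genes, with a median of -0.39, the receptor NimC4 for apoptotic cells averaged 991 ± 537 in the later and 1572 ± 279.5 in the earlier embryos and the prophenoloxidase PPO2 39.6 ± 50.9 in the later and 100.2 ± 77.1 in the earlier embryos. The fat body list had 2 tested genes, with apolpp, the lipophorin precursor, at 10.3 to 518 in the later and 232 to 778 in the earlier embryos. Among 15 gut and Malpighian tubule genes, with a median of -0.44, tsh averaged 176 ± 93.4 in the later and 379 ± 63.8 in the earlier embryos (edgeR adjusted p = 0.138), bowl 2358 ± 705.5 in the later and 1737 ± 249 in the earlier embryos and fkh 273 ± 120.2 in the later and 326 ± 46.0 in the earlier embryos. The gut median was 0.36 with 9 of 15 above 0 with the spike-in share as a covariate, and 0.02 without the 3 embryos above 8% spike-ins. The summed level of the gut list was 1953 to 3814 with a median of 3357 in the later embryos and 2586 to 3209 with a median of 2826 in the earlier ones. The glial median was 0.12 without the embryo at 405 min and -0.37 without the one at 645 min. Without both it was -0.48 with 2 of 9 above 0. With the covariate the glial median was 0.26, the hemocyte median 0.05 and that of all tested genes 0.14. The tracheal median was then -0.44 with 4 of 10 above 0. Without the 3 embryos above 8% spike-ins the tracheal median was -0.52 with 5 of 12 above 0. With all 14 embryos and edgeR none of these 5 lists had a member past the threshold. DESeq2 called 2 of 10 tracheal and 1 of 9 glial genes lower. The 5 latest against the 5 earliest embryos gave 1 tracheal gene lower. Without the embryo at 645 min the tracheal median was -0.997 with 0 of 10 above 0 and 1 called lower. Without the embryos at 645 and 405 min it was -0.84 with 1 of 10 above 0 and 1 called lower.

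Neural and muscle lists had 0 members past the threshold as well. Neural progenitor genes had a median log2 fold change of -0.46 over 22 tested genes, with 5 above 0. The differentiation factor pros averaged 387 ± 116 normalised CPM in the later and 526 ± 226 in the earlier embryos, and the translation repressor brat 1249 ± 391 in the later and 918 ± 252 in the earlier embryos. Genes of neuronal maturation had a median of 0.21 over 11 tested, -0.38 with spike-in scaling, and -0.35 with 4 of 11 above 0 without the embryo at 645 min. Relative to the median of all tested genes the neuronal median was 0.33 with TMM and 0.56 with spike-in scaling. The syntaxin Syx1A averaged 482 ± 214 in the later and 318 ± 53.3 in the earlier embryos. The 24 axon guidance genes had a median of -0.14, with the adhesion molecule Fas2 at 582 ± 185 in the later and 713 ± 197 in the earlier embryos and trn at 528 ± 173 in the later and 573 ± 111 in the earlier embryos. Contractile muscle genes had a median of 0.52 over 9 tested, or -0.34 with spike-in scaling. Relative to all tested genes this was 0.63 with TMM and 0.60 with spike-in scaling. Without the embryo at 645 min the muscle median turned to -1.04 with 2 of 9 above 0, without both that embryo and the one at 405 min it was 0.17 over 8 tested, and with DESeq2 it was -0.16. The highest summed levels of the muscle list in the groups were in the embryos at 645 min (6718) and 405 min (4976). The tropomyosin gene Tm1 averaged 1118 ± 295 in the later and 769.9 ± 200.3 in the earlier embryos, and the muscle actin Act57B 973 ± 971 in the later and 1082 ± 696 in the earlier embryos. The actin Act87E had 0 to 102 in the later and 25.7 to 196 in the earlier embryos (edgeR adjusted p = 0.159). Muscle regulators had a median of -0.02 over 19 tested, with the muscle transcription factor Mef2 at 205 ± 132 in the later and 247 ± 102 in the earlier embryos and the RNA-binding protein how at 255.5 ± 115 in the later and 209.1 ± 84.5 in the earlier embryos.

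Cell cycle genes had a median of -0.34 over 33 tested, of which 0 passed and 12 were above 0. The mitotic phosphatase stg (string) averaged 1011 ± 351 normalised CPM in the later and 1279 ± 247 in the earlier embryos, and the replication clamp PCNA 844 ± 536.5 in the later and 595 ± 268 in the earlier embryos. The summed level of the list was 2711 at 645 min and 3423 at 405 min, the lowest value of each group. Glycolysis genes had a median of 0.71 over 10 tested, of which 0 passed, or -0.11 with spike-in scaling. Relative to the median of all tested genes this was 0.82 with TMM and 0.83 with spike-in scaling. The glycolysis median was 0.096 without the embryo at 645 min and 1.41, with 1 gene called higher, without the one at 405 min. The aldolase Ald1 averaged 327 ± 190.3 in the later and 128 ± 126 in the earlier embryos, with 697 at 645 min and 405 at 405 min, and the enolase Eno 171 ± 85.3 in the later and 63.1 ± 69.4 in the earlier embryos (edgeR adjusted p = 0.236 and 0.389). Cuticle and chitin genes had a median of 0.29 over 9 tested, or -0.24 with spike-in scaling. Relative to all tested genes this was 0.41 with TMM and 0.70 with spike-in scaling. The cuticle median was -0.13 with 3 of 9 above 0 without the embryo at 645 min, and 1.78 with 8 of 9 above 0 without the one at 405 min. The chitin-binding protein obst-A had 650 at 645 min, at most 163 in the other later embryos, and 496 at 405 min. The actin bundler sn averaged 57.3 ± 31.6 in the later and 56.7 ± 14.1 in the earlier embryos.

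The remaining lists showed small medians and 0 members past the threshold. Septate and adherens junction genes had a median of 0.12 over 25 tested, with arm (beta-catenin) at 553.5 ± 185 normalised CPM in the later and 441 ± 161 in the earlier embryos and the adhesion protein ed at 783 ± 291 in the later and 620.4 ± 84.1 in the earlier embryos. Basement membrane genes had a median of 0.11 over 7 tested, which turned to -0.29 with 1 of 7 above 0 without the embryo at 645 min, with the laminin chains LanA at 843 ± 372 in the later and 937 ± 436 in the earlier embryos and LanB1 at 220.2 ± 105 in the later and 202 ± 59.3 in the earlier embryos. Cell death genes had a median of 0.04 over 10 tested, with the death inducer hid at 439 ± 278 in the later and 389.6 ± 98.4 in the earlier embryos and the caspase inhibitor Diap1 at 311.5 ± 69.6 in the later and 320.5 ± 35.4 in the earlier embryos. Genes of sex determination and dosage compensation had a median of -0.16 over 10 tested, with the noncoding RNA roX1 at 987 ± 189 in the later and 1229 ± 114 in the earlier embryos and Sxl at 430.2 ± 310.3 in the later and 245 ± 186 in the earlier embryos. Egg and early embryo transcripts had a median of 0.01 over 5 tested, with stau at 475 ± 146 in the later and 442 ± 40.4 in the earlier embryos and gcl at 33.1 ± 18.1 in the later and 37.2 ± 12.4 in the earlier embryos. In the respiratory chain ND-23 averaged 557 ± 86.4 in the later and 537 ± 51.4 in the earlier embryos and ATPsynC 634 ± 231 in the later and 628.5 ± 111 in the earlier embryos. The small positive medians of the junction, basement membrane, cell death and egg lists were under 0 with spike-in scaling. The median of all tested genes was -0.94 with that scaling. Relative to it these lists were at 0.17, 0.39, 0.21 and 0.12, in that order. No eggshell or yolk gene passed the filter on low counts, so none of those 11 genes was tested.

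**Figure D5:**
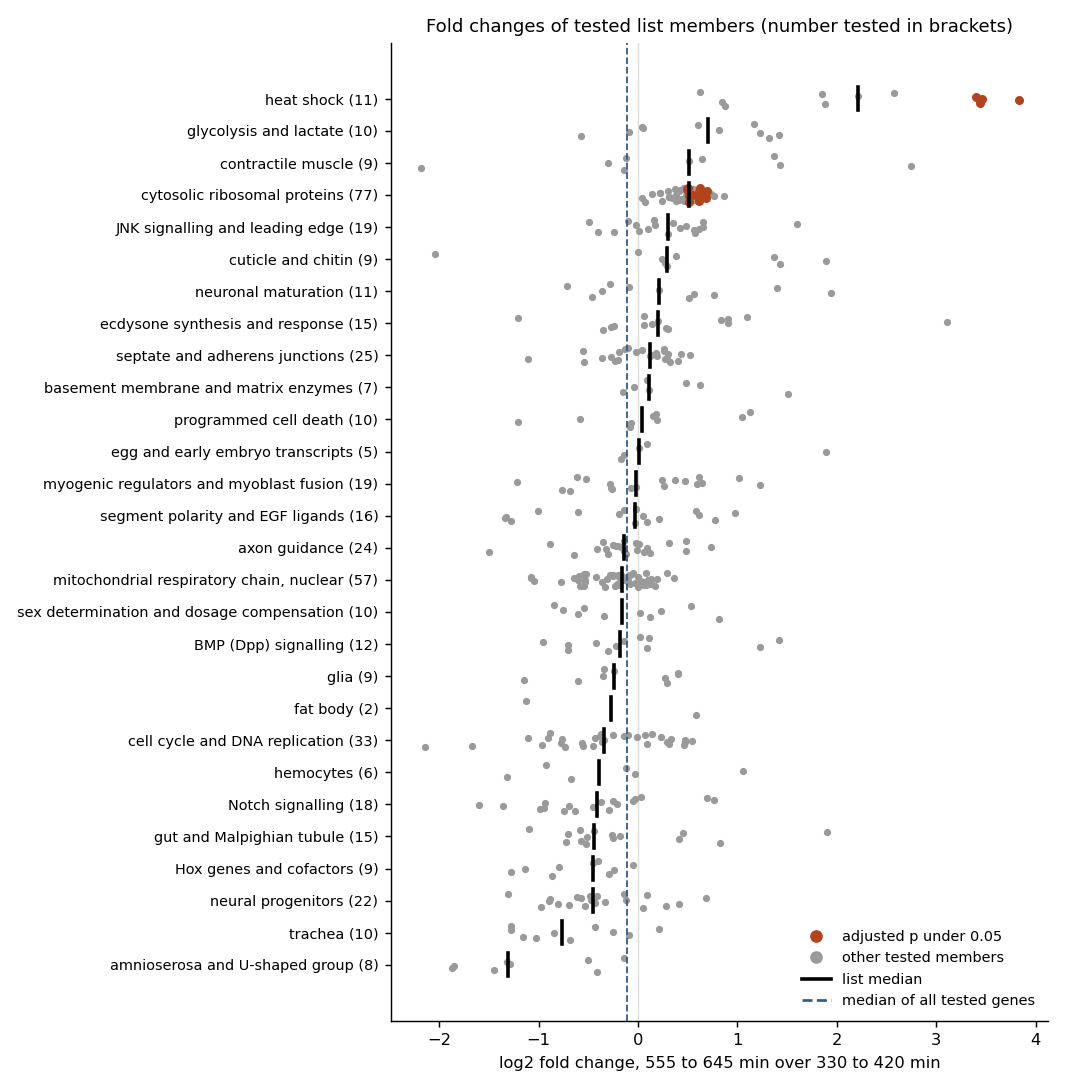
Log2 fold change, 555 to 645 min over 330 to 420 min (horizontal axis), of each tested member of 28 gene lists (rows, number tested in brackets), with list medians as black bars. The dashed line is the median of all tested genes, -0.12. Red points, with an edgeR adjusted p under 0.05, occur in the heat shock list (4) and the ribosomal list (17) alone.

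The 8 embryos labelled 435 to 540 min, which did not enter the comparison, are described here for the called genes. In a linear fit over these embryos edgeR called 0 of 5592 genes, with 57 rising and 27 falling at an unadjusted p under 0.05, and limma voom also called 0. The fitted slope was above 0 in 16 of the 56 called genes (28.6%) and in 3038 of all 5592 tested genes (54.3%). The last of the 8 embryos, at 540 min, stood apart as described above. Its ribosomal sum of 230425 was the lowest of the 8, against 426384 at 435 min, and 17 of the 56 called genes are ribosomal. Slopes without the 540 min embryo were not fitted, so these signs may rest on it. Hsp26 had 12.2 to 67.7 normalised CPM in these embryos with a median of 28.2, nearer to the earlier than to the later group. The noncoding RNA cherub had 0 to 116 with a median of 53.9, Rdl 1.11 to 1691 with a median of 145, and for 33.2 to 489 with a median of 209.4. For these 3 genes the highest of the embryos between the groups exceeded the mean of the later group. RpL5 had 2201 to 4869 in them with a median of 2561, between the means of 3715 in the later and 2386 in the earlier group.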

How the data were processed

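RNA of 91 single embryos was sequenced by CEL-Seq. The authors deposited raw read counts, 1 column per embryo. CASAVA 1.8, Bowtie2 2.1.0, HTSeq 0.5.4p3 and build BDGP5 are named in the submitters' processing notes. Neither the strand setting nor any collapsing of duplicate molecules is stated in the sources, so overlapping and antisense genes may share reads. Another sheet that the authors deposited, with no measurements, gave pool and lane. Symbols came from the gene name table of another build (15002 of 15682 identifiers matched), so no coordinates are given. Spike-ins and summary lines (3.53% spike-ins, 17.1% outside genes, 2.4% ambiguous, 17.7% unaligned over the 14 embryos) stayed out of library sizes and tests. Groups came from labelled times. Counts were tested with edgeR 4.0.16 (quasi-likelihood F-test, limma 3.58.1, R 4.3.3) after filterByExpr (minimum count 10, total 15) and TMM over the 14 embryos, with Benjamini-Hochberg adjustment and a threshold of 0.05. SE is the fold change over the square root of F. DESeq2 1.42.0, limma voom, other scalings, filters, windows and left-out embryos were alternatives. The fit was tested on simulated counts. Normalised CPM uses tested genes and TMM over 22 embryos. Library measures used exact permutations (3432 splits, smallest p 0.000583). Genes were named by rule: the 14 largest called risers of at least 50 CPM in the higher group, leaving out CG and CR symbols, up to 4 called members of each list or else its 2 members with the highest mean, and the cell type markers. Members and lists were chosen with earlier results of these data known. Some members of the ribosomal list are counted but not reported singly here.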

Additional observations from a re-analysis of the deposited data

Results flagged for a closer look

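In 33 of 304 groups of 7 values tested, 1 embryo lay far from the other 6, with a gap to its nearest neighbour, as a share of the group's range, above Dixon's critical value for 7 values. About 1 in 20 groups of independent, normally distributed values would pass it. The groups here share embryos, hold zeros and include called genes and genes picked after their values were seen. The count can therefore not be set against that rate. Gene levels were compared as log2(normalised CPM + 1), levels below are normalised CPM, and the share of the range is given in brackets.

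The embryo at 600 min, with the smallest library, accounts for 9 of these in the later group. It had 40.5% unaligned reads (0.72), the highest Xrp1, 523.5 (0.649), and the lowest Mef2, 32.3 (0.576). It was at 0 for gcl (0.744), wor (0.64), moody (0.715), trh (0.735), Doc1 (0.606) and pnr (0.788). In the embryo at 630 min cherub was lowest at 8.10 (0.575), abd-A at 15.2 (0.589), roX1 at 622 (0.639) and marge at 26.3 (0.626). In the embryo at 645 min CycB was lowest at 21.3 (0.688) and Phyhd1 at 103 (0.597). E(spl)mbeta-HLH was at 0 in the embryo at 585 min (0.804).

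In the earlier group the embryo at 405 min had the highest Hr4, 1198 (0.682), Hr3, 848 (0.587), LanB1, 329 (0.58) and CG15771, 292 (0.611), and the lowest CycA, 192 (0.613) and Doc3, 9.74 (0.741). The embryo at 330 min was lowest for Ance at 11.4 (0.827), Act57B at 88.5 (0.666) and Mef2 at 72.8 (0.612). It was at 0 for PPO2 (0.643) and moody (0.675), and highest for arm at 793 (0.627), Sxl at 665 (0.793) and RpS16 at 2779.8 (0.592). The embryo at 390 min was at 0 for Pino (0.71) and Doc2 (0.656). FBgn0002607 was highest at 360 min with 9302 (0.678).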

How the results depend on the processing

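The counts of called genes depended strongly on the processing. Against 56 genes higher there were 7 with RLE size factors, 154 with DESeq2, 13 with all 22 embryos in 3 groups, 1 with a linear trend over 22 embryos and 34 with 5 against 5 embryos. There were 0 with spike-in scaling, with no scaling beyond gene totals, with spike-in share as a covariate and without the 3 embryos above 8% spike-ins, and 165 without the embryos at 405 and 645 min. Leaving out 1 embryo gave 0 to 127 genes higher, 0 to 45 lower, 0 to 34 ribosomal and 0 to 5 heat shock calls. Against 0 genes lower there were 2 with no filter, 65 with DESeq2, 16 with limma voom, 4 with 5 against 5 embryos and 37 without the embryos at 405 and 645 min. Ribosomal calls, 17 in the report, were 9 without mitochondrially encoded genes, 1 with no filter, 28 with DESeq2, 4 with 5 against 5 embryos, 32 without the embryos at 405 and 645 min, and 0 with RLE size factors, spike-in scaling, 22 embryos in 3 groups, the linear trend, no scaling, the covariate and without the 3 embryos above 8% spike-ins. Heat shock calls, 4 in the report, were 1 with RLE size factors, with the linear trend and with 5 against 5 embryos, and 0 with limma voom and with the 4 settings that called no gene higher. The share of calls that were higher was 70.3% with DESeq2, 72.4% with limma voom and 81.7% without the embryos at 405 and 645 min. Leaving out the embryos at 405 and 645 min or the 3 above 8% spike-ins, the covariate and the fit with no scaling were chosen after seeing the data. The cause of these changes was not tested.

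All 56 called genes kept their direction in the alternatives that tested them, except with spike-in scaling, where 36 of 56 did and the median of all genes shifted by -0.826. Among those under 0 there, RpL21 was at -0.37, RpL5 at -0.31, RpL37-1 at -0.27, FBgn0002607 at -0.33, RpL40 at -0.44, RpL7 at -0.35, RpS19a at -0.24, RpS4 at -0.40, RpL11 at -0.40, mt:CoI at -0.23, mt:Cyt-b at -0.048, RpS21 at -0.23, RpL29 at -0.28, RpL15 at -0.30, RpS15 at -0.29, RpS16 at -0.34, RpS6 at -0.26 and RpL8 at -0.43 (log2). Hr3 was at 2.18 with DESeq2. No paired analysis was possible because there was 1 embryo per time and nothing pairs embryos of the groups.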
